A study of Drosophila melanogaster with 3 samples.

Results

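The N, Dl and Enhancer of split loci of Drosophila melanogaster were examined in a chromatin immunoprecipitation and sequencing (ChIP-seq) peak list for GFP-tagged Caudal, a homeodomain transcription factor. A peak was taken as a member when its midpoint lay in one of 3 windows of 70 kb, all on the BDGP5 assembly. The windows were X from 3015000 to 3085000 for N, 3R from 15125000 to 15195000 for Dl, and 3R from 21810000 to 21880000 for the Enhancer of split complex, abbreviated E(spl)-C. The 3 windows held 14 of the 7579 peaks of the list (0.185%), of which 6 lay in the N window, 2 in the Dl window and 6 in the E(spl)-C window.

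The study holds 1 ChIP sample and 2 input samples, all from the source labelled 7T and at a stage labelled 3dFemale. The title of the ChIP sample names the transgene cad-GFP and ends in 1 and 2, read here as replicates, though the title does not use that word. The antibody of this sample is labelled NWG-GFP. The growth text gives y w, VK33 flies and describes the handling of embryos, at odds with that stage, so the material behind the peaks is known only as labelled. The labels do not say what drives the transgene, nor whether untagged Caudal is also present. The peak list of the ChIP sample was the one set of values analysed here, so no value has a replicate error, and the inputs were not analysed here. Read depth is unknown because no reads or read totals were analysed here. The list itself gives neither counts nor fold enrichments.

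Notch, the product of N, is a receptor at the cell surface, and Delta, the product of Dl, is one of its ligands on neighbouring cells. Binding of the ligand leads to cleavage of Notch, and its intracellular part enters the nucleus and acts with the DNA-binding protein Suppressor of Hairless. Within E(spl)-C, the genes with the suffix HLH or BFM, named below, are classic targets of this signal. In the adult midgut of the fly, Notch signalling is known to direct the fate of the daughters of intestinal stem cells, and Caudal is known from the embryo's posterior and from the intestine. In the RefSeq gene table of Release 6, 13 genes of the complex were found and followed one another among protein-coding genes on 3R. They were E(spl)mdelta-HLH, E(spl)mgamma-HLH, E(spl)mbeta-HLH, E(spl)malpha-BFM, Kaz-m1, E(spl)m2-BFM, E(spl)m3-HLH, E(spl)m4-BFM, E(spl)m5-HLH, E(spl)m6-BFM, E(spl)m7-HLH, E(spl)m8-HLH and gro. The 7 genes with the suffix HLH encode basic helix-loop-helix repressors, the 4 with the suffix BFM belong to the Bearded family, which modulates the signal, and gro encodes the co-repressor Groucho. The neighbours of N in that table were CG4116 and CG18508. The table is of another assembly release than the peaks, so it served for names and order, and no peak was assigned to a gene, promoter, exon or intron.

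Each peak carries a score from the authors' peak caller. The file does not define it, its lowest value was 50, and it was used to order peaks within the list. A higher score is not an amount of binding. Among the 14 members the score ran from 57.34 to 2128.81, with a median of 161.9 beside 198.7 for the whole list, and 6 members scored above that list median. One member scored 1000 or more (7.14%), where 6.77% of all peaks did. A score under 100 was held by 5 members (35.7%), against 24.1% of all peaks. The widths ran from 448 to 2270 bp, with a median of 1142 bp beside 1366 bp for the list.

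**Figure D1:**
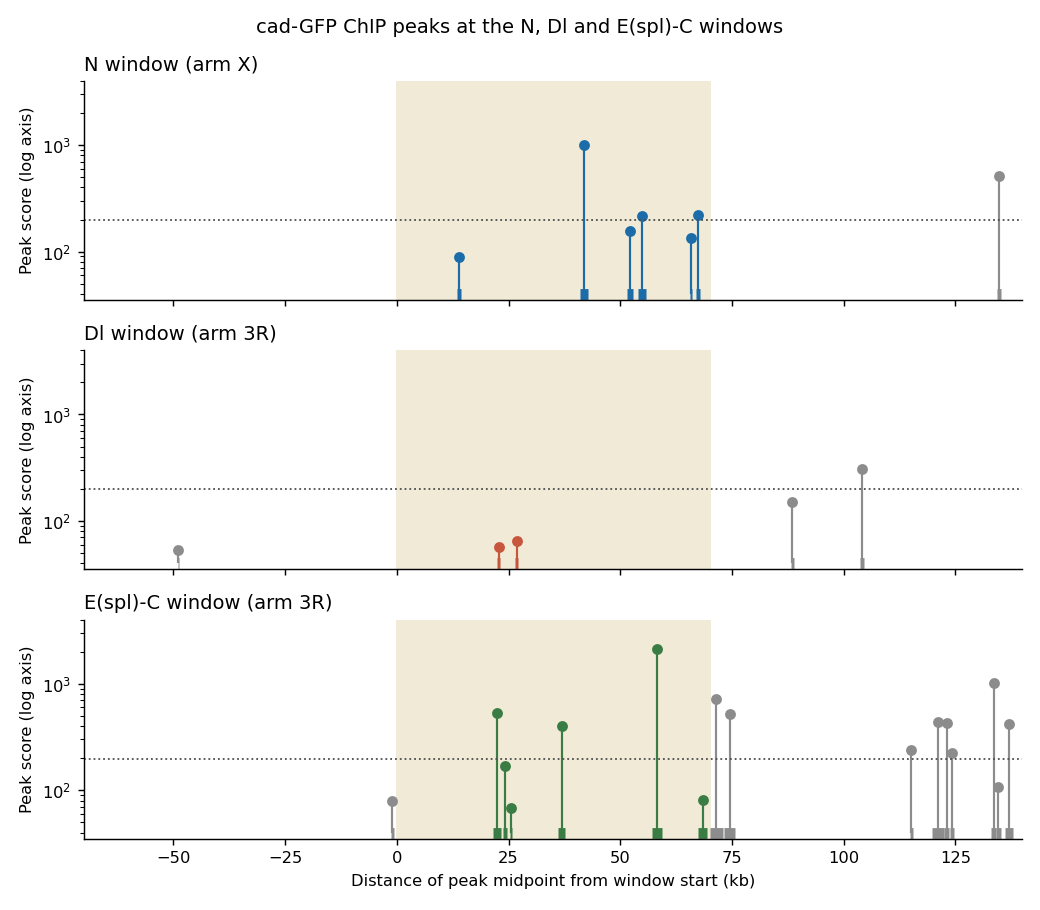
Peaks at the 3 windows. The horizontal axis gives the distance of each peak's midpoint from the start of the window in kb, the vertical axis the peak score on a log axis, the thick bars at the bottom the peak widths to scale, the shaded area the window, the dotted line the list median of 198.7, and grey points peaks outside the window. The E(spl)-C window holds the member of highest score, 2128.81, and both Dl members lie well below the dotted line.

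At E(spl)-C, the peaks began with a close group on the left and an intermediate peak. A peak of very high score and a last peak of low score followed on the right. The left group held 3 peaks within 4.16 kb. Its first peak, at 21831563 to 21833208, was 1646 bp wide with a score of 527.1, the second, at 21833753 to 21834567, was 815 bp wide with a score of 168.4, and the third, at 21835253 to 21835722, was 470 bp wide with a score of 68.9. Scores and widths thus descended together from the first to the third peak of the group, and the edges of these neighbours were 544 and 685 bp apart. After 10.4 kb without a peak came the peak at 21846166 to 21847668, 1503 bp wide, with a score of 402.4.

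The peak of highest score in the E(spl)-C window lay at 3R 21866990 to 21869259 and was 2270 bp wide. Its score of 2128.81 ranked 94 in the whole list of 7579 peaks and 17 among the 1788 peaks of 3R. It was 4.04 times the next score in the window, a ratio on the scale of the score and not of binding. In this list wide peaks tend to score high, so the score was also set beside those of peaks whose width was within 10% of its own. Their median score was 389.0, and 654 of these 655 peaks scored lower. The peak was thus high for its width as well as in rank. Stretches without a peak of 19.3 kb on its left and 8.19 kb on its right separated it from the other members. Of the gaps between neighbouring peaks on 3R, 18.0% and 32.1% were longer than these stretches.

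The last member, at 21877451 to 21879384, stood at the other extreme. It was 1934 bp wide but had a score of 80.8, where the median of 760 peaks of like width was 306.3, and 42 of them (5.53%) scored lower. The right edge of the window cuts through a group at this place. The midpoint of the last member lay 1.58 kb inside, and that of the next peak, at 21880081 to 21882925, lay 1.5025 kb outside. This outer peak was 2845 bp wide with a score of 723.8, and only 696 bp separated the edges of the pair. With a further peak they made a group of 3 peaks spanning 8.25 kb from 21877451 to 21885699, of which 1 is a member. On the left, the peak at 21808588 to 21809405, with a score of 79.0, had its midpoint 1.00 kb outside the window.

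The N window held 1 high peak among 5 of middling or low score. The first, at X 3028436 to 3029444, was 1009 bp wide with a score of 88.6, and 26.4 kb without a peak followed it. The second, at 3055893 to 3057868, was 1976 bp wide and had a score of 997.6, just under the 1000 used above to mark high scores. It ranked 514 in the list and 118 among the 1381 peaks of X, and it scored higher than 714 of the 749 peaks of like width, whose median was 320.1. Its score was 4.56 times the next in the window, again on the scale of the score. As at E(spl)-C, a single peak stood well above the other members of its window. How often other windows of the arms have such a peak was not computed.

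The other 4 peaks of the N window came as 2 close pairs. The pair at 3066551 to 3067799 and 3068854 to 3070747 had widths of 1249 and 1894 bp and scores of 155.3 and 217.5, with 1054 bp between the edges. Both scored under the medians of their width classes, which were 177.5 and 291.3. The pair at 3080606 to 3081053 and 3081914 to 3082947 had widths of 448 and 1034 bp and scores of 133.9 and 218.8, with 860 bp between the edges. Both scored above their width classes, at 72.4 and 152.5. The 448 bp peak was the narrowest of all members, narrower than all but 3.11% of the list, yet it scored higher than 175 of 188 peaks of like width.

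The N peaks stood between long stretches without any peak. Before the first member, no peak was listed from 2842534 to 3028435, a stretch of 186 kb that ranked 12 among the 1380 gaps between neighbouring peaks on X. After the last member, the stretch from 3082948 to 3149406 was free for 66.5 kb and ranked 81, where the median gap on X was 3579 bp. The 6 members were thus the only peaks within 307 kb, from 2842534 to 3149406. Of the 1374 runs of 6 consecutive peaks on X, 66 (4.80%) had more room between the peaks on both sides, and the median run had 74.5 kb. These runs overlap one another, so the share describes the arm and is not a test. The peak just before this stretch, at 2841742 to 2842533, had a score of 194.8, and the one after it, at 3149407 to 3150281, had a score of 513.4. Whether reads can be aligned throughout the peak-free stretches was not tested.

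The Dl window held the fewest members, and their scores were the lowest of all 14. The peak at 3R 15147502 to 15148138 was 637 bp wide with a score of 57.3, and the peak at 15151489 to 15152068 was 580 bp wide with a score of 64.7. Both scores were near the floor of 50, so that only 4.79% and 8.83% of all peaks scored lower. They were also low for their width, since the medians among peaks of like width were 98.3 and 87.7. The midpoints of the pair were 3.96 kb apart, and the remaining 42.9 kb to the right edge of the window, from 15152069 to 15195000, had no peak.

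The sparseness at Dl extended beyond the window. Before the pair, 71.2 kb were free of peaks, and after it 61.2 kb, which ranked 70 and 90 among the 1787 gaps of 3R, where the median gap was 3857 bp. The peak just before, at 15075939 to 15076276, had a score of 53.5 and lay 48.9 kb outside the window, and the peak just after, at 15213249 to 15213800, had a score of 152.2 and lay 18.5 kb outside. Between these 2 peaks the Dl pair stood alone in 137 kb. Of the 1785 pairs of consecutive peaks on 3R, 134 (7.51%) had more room, and the median pair had 25.5 kb. At E(spl)-C, the same measure gave 70.7 kb between the peaks on both sides of its 6 members, and 56.9% of the 1781 runs of 6 peaks on 3R had more room, with a median of 80.6 kb. The nearest peak with a score of 1000 or more was centred 122 kb from the middle of the Dl window. For the N window this distance was 369 kb, while the E(spl)-C window held such a peak. Because the depth is unknown, the absence of peaks of higher score at Dl cannot be read as an absence of Caudal.

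**Figure D2:**
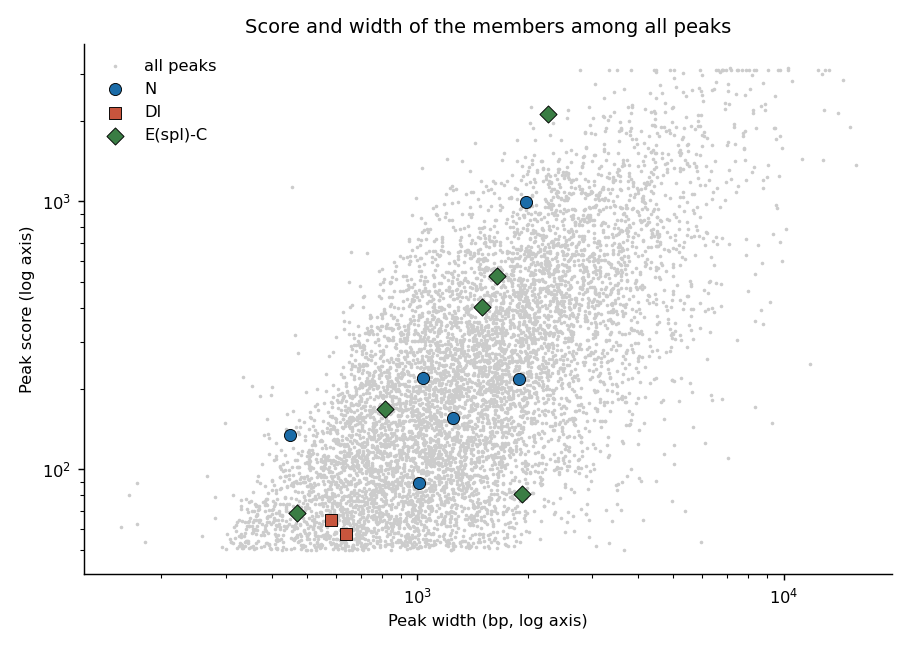
Peak score against peak width in bp, both on log axes, for all 7579 peaks in grey and the 14 members in colour by locus. The E(spl)-C peak of 2270 bp lies at the upper edge of the cloud at its width, the E(spl)-C peak of 1934 bp near the lower edge, and both Dl peaks lie at the bottom left.

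The loci were then set beside windows of the same 70 kb length on the same arm. For each locus the arm was tiled end to end from the locus window outwards, between the first and the last peak of the arm, so that all complete windows were used once and none was drawn at random. With 1 list there is no test, and the shares below describe where each locus stands. The N window, with 6 peaks, was equalled or exceeded by 115 of 318 other windows of X (36.2%), whose median was 4 peaks with quartiles of 1 and 7. The E(spl)-C window, also with 6, was equalled or exceeded by 146 of 396 other windows of 3R (36.9%), with the same median and quartiles. The Dl window, with 2, was equalled or exceeded by 298 of 397 (75.1%), and 144 windows of 3R had 2 peaks or fewer, 68 of them none. In number of peaks, N and E(spl)-C thus lay between the median and the upper quartile of their arms, and Dl at the lower quartile.

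**Figure D3:**
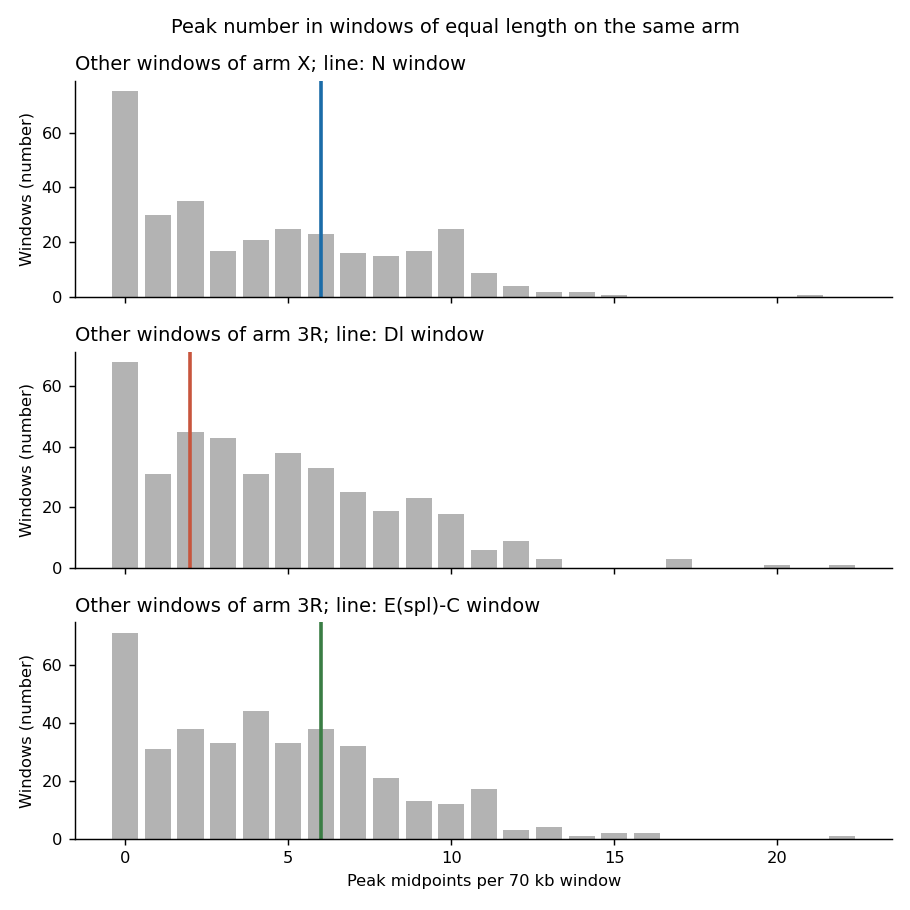
Number of peak midpoints per 70 kb window, on the horizontal axis, against the number of other windows of the same arm that held that many, in grey bars. The coloured lines mark the N window at 6 peaks, the Dl window at 2 and the E(spl)-C window at 6, all inside the bulk of their arm.

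The share of each window that lay inside peaks was also lowest at Dl. Peaks covered 12.3% of the E(spl)-C window, 10.9% of the N window and 1.74% of the Dl window, where 11.4% of 3R and 11.5% of X were covered. At least as much cover was found in 36.1% of the other 3R windows for E(spl)-C, in 43.4% of the other X windows for N, and in 76.1% of the other 3R windows for Dl. Relative to the mean density of the arm, the number of peaks was 1.39 times the arm's at N, 1.34 times at E(spl)-C and 0.446 times at Dl.

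The highest score of the window separated the loci more than the number of peaks did. A score of at least 2128.81 was found in 14 of the 396 other windows of 3R (3.54%), whose median highest score was 464.7, counting empty windows as 0. For N, a score of at least 997.6 was found in 86 of 318 other windows of X (27.0%), with a median of 542.0. For Dl, a score of at least 64.7 was found in 328 of 397 other windows of 3R (82.6%), and all but 1 of the 69 windows below it held no peak. Among the windows of 3R with any peak, 99.7% thus had a higher top score than Dl. The medians over the peaks of a window were 285.4 at E(spl)-C, 186.4 at N and 61.0 at Dl, beside 197.5 for all peaks of 3R and 232.0 for those of X.

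The immediate surroundings of the loci differed as well. The 2 windows before N had no peak and the one after it had 1, while a pair of windows further on, 3 and 4 windows after it, had 11 and 10. The windows next to Dl had 1 peak before and 2 after, so the low number at Dl was shared with both neighbours, and the second windows away had 6 and 5. The window before E(spl)-C had 1 peak and that after it had 9, with a top score of 1027.52. The median over the 10 windows nearest to each locus, 5 on each side, was 1.5 peaks around N, 4.5 around Dl and 4 around E(spl)-C. The N window therefore held more peaks than 8 of its 10 neighbours, a count given as a description of this list.

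**Figure D4:**
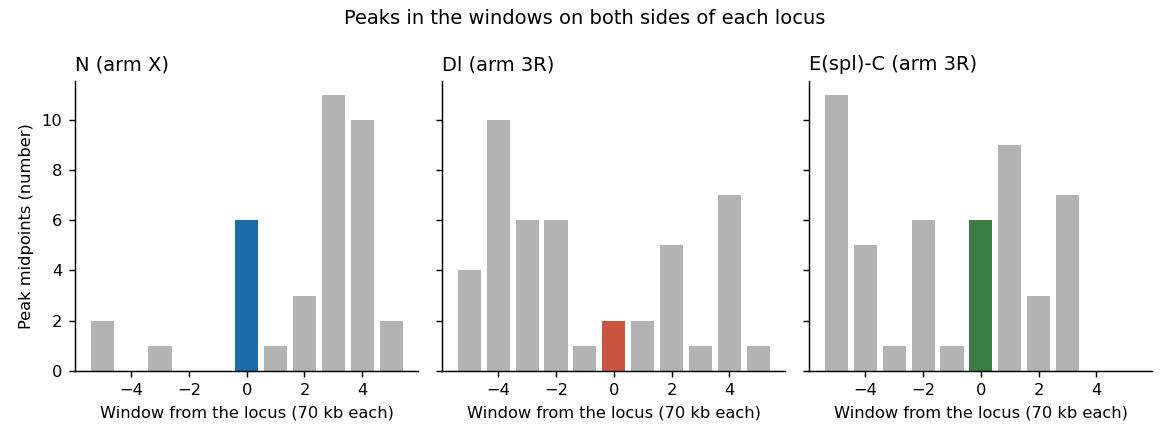
Number of peak midpoints in each 70 kb window, from 5 windows before to 5 windows after each locus, with the locus window in colour at 0. The N bar of 6 stands beside empty windows on the left, the Dl bar of 2 is flanked by bars of 1 and 2, and the E(spl)-C bar of 6 lies between bars of 1 and 9.

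Close spacing was counted only between members of the same window. The gaps at the window edges, long at N and Dl, were left out, whereas the pairs of the whole list include every gap. The counts below are therefore of unlike sets and were not compared further. Of the 11 pairs of neighbouring members within a window, 5 had midpoints within 5 kb (2 at N, 1 at Dl and 2 at E(spl)-C), beside 44.7% of the 7565 neighbouring pairs of the whole list. The distances between neighbouring midpoints ran from 1.60 to 27.9 kb at N and from 1.33 to 21.2 kb at E(spl)-C. Relative to peaks of like width, 7 of the 14 members scored above the median and 7 below it, so the 3 loci together did not lean to either side, although the highest peak of E(spl)-C and that of N lay far above and both Dl peaks below.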

How the data were processed

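The authors' peak caller was MACS, per the file headers, and reads were aligned with Bowtie to BDGP5, per the submitters' processing notes; their versions and settings, the use of the inputs and any pooling of replicates are not stated there. The deposited score of each peak has no stated definition and stops near 3100 (29 peaks share that value), so it was used for order within the list. Starts are printed from 1, reading the deposited starts as 0-based, and midpoints lie halfway between start and end. Windows were tiled and counted with Python 3.11.15, pandas 2.3.3 and NumPy 2.4.6, and the counting was tested on simulated data. The members, windows and measures were chosen with earlier results of these data known. All members were named, with the peaks next to each window edge. No test across samples was possible with 1 list, and no p-value was computed. Alternatives varied the score minimum, merging of peaks, window length and choice of arm windows. The planned count of a Caudal motif in promoters was not run, because no promoter sequence was used here. Dl was not matched in the gene table (14 of 15 names were).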

Additional observations from a re-analysis of the deposited data

How the results depend on the processing

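Of 99 values recomputed under the alternatives, 65 stayed close to those reported, meaning within 1.5 times for a value and within the exact 95% binomial interval for a share of arm windows, and 34 moved. Dl stayed lowest of the 3 loci in peak count, cover and highest score under each alternative that gave it a value. With peaks of score 100 or more, Dl had 0 peaks and 0% cover and no highest or median score. A share of 100% of arm windows equalling or exceeding 0 follows by construction, and 78 of the 397 other windows (19.6%) had no peak either. For E(spl)-C, 42.9% of arm windows then had as many peaks and 43.9% as much cover, and its median score was 464.8. With peaks at or above the list median, Dl again had 0 peaks and 0% cover (100% by construction, with 108 of 396 windows, 27.3%, also empty), N had 3 peaks and 7.01% cover, and E(spl)-C had 3 peaks, 7.74% cover and a median score of 527.1. After merging across gaps of up to 500 bp, 29.6% of windows had as many peaks as N and 27.3% as many as E(spl)-C, since the members did not merge while other peaks did. With windows widened by 15 kb on each side, the shares at least as high in count and cover were 52.3% and 57.7% for N, 83.8% and 84.5% for Dl, and 29.3% and 29.7% for E(spl)-C, and in highest score 36.9% for N and 88.4% for Dl. The widened E(spl)-C window held 9 peaks, and those of N and Dl gained none. Against arm windows with a peak only, these shares in count and cover were 47.3% and 56.8% for N, 90.6% and 91.8% for Dl, and 44.9% and 44% for E(spl)-C, and in highest score 35.4% for N and 99.7% for Dl, where fewer windows are compared by construction. The share for the highest score of E(spl)-C, reported as 3.54%, was 5.07% with widened windows and 4.31% against windows with a peak only. By this measure it did not move in any of these settings. Windows at every 1 kb and membership by any overlap moved no value.

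No paired analysis was possible because 1 peak list stands for the ChIP replicates and no values of the inputs were used, and for the same reason no replicate was left out. The unknown read depth limits what the sparse stretches around N and Dl show.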
